A study of Mus musculus with 4 samples.

Results

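Transcripts of 6 genes through which regulatory T cells (Tregs) suppress other cells were followed: *Il10*, *Fgl2*, *Ebi3*, *Tgfb1*, *Lrrc32* and *Itgb8*. They were taken by symbol from the 32285 genes of 2 droplet count matrices of hepatic CD4+ T cells, and all 6 were present in both. Each matrix is 1 library pooled from 2 male mice fed a choline-deficient diet with 60 kcal% fat and 0.1% methionine, and both libraries share this diet and the sort of CD4+ T cells from liver. The WT library came from mice labelled wild type. The dKO library came from Nr4a1 fl/fl Nr4a2 fl/fl Cd4-Cre mice, in which Cre under the *Cd4* promoter deletes floxed alleles in the thymus at a stage that precedes both CD4 and CD8 T cells, so the deletion is not limited to Tregs. NR4A1 and NR4A2 are orphan nuclear receptors induced by T cell receptor signalling. T cell receptor contigs were assembled from the same cells.

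IL-10 is a cytokine that acts on myeloid cells and T cells through IL10RA and IL10RB. FGL2 is a secreted fibrinogen-like protein that binds the inhibitory Fc receptor FCGR2B, and EBI3 is a subunit shared by IL-27 and IL-35. TGF-beta1 is made in a latent form that is held on the Treg surface by GARP, the product of *Lrrc32*, and freed by the integrin alpha-v beta-8, whose subunits are encoded by *Itgav* and *Itgb8*. In tissues, Tregs with these products also carry markers such as KLRG1 and ST2 (*Il1rl1*).

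The promoters of *Fgl2* and *Itgb8* are shown because these were the members with a promoter in the table used that differed past 1.5-fold between the libraries in Foxp3+ T cells. They span 250 bases before to 50 bases after the start site (RefSeq, GRCm38.p6), at chr5:21372423-21372722 on the plus strand and chr12:119238227-119238526 on the minus strand, and capitals mark a match to the AP-1 letters TGANTCA.
Fgl2: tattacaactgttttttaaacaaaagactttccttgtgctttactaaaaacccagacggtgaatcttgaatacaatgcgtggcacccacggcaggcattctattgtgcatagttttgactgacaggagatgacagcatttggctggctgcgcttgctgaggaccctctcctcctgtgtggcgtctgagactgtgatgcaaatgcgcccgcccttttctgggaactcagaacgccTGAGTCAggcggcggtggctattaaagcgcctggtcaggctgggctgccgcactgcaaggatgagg
Itgb8: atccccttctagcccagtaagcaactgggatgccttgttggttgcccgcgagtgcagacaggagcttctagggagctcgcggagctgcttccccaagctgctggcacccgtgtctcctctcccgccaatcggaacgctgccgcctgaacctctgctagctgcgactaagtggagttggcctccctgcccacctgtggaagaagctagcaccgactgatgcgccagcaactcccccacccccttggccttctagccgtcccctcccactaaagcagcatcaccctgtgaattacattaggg
The letters searched on both strands were TGANTCA for AP-1, AAAGGTCA for the NR4A monomer element (NBRE), TGACGTCA for CRE and TGGAAA for NFAT. Of all 32544 promoters of this length, 7.79%, 1.52%, 1.80% and 21.5% held them, in that order. Among the 4 matched members (*Fgl2*, *Itgb8*, *Ebi3* and *Tgfb1*), the only match was TGAGTCA in *Fgl2*, 16 bases before the start. These are matches of letters and say nothing about binding.

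On GRCm38, *Il10* (ENSMUSG00000016529) lies at chr1:131019845-131024974 and *Fgl2* (ENSMUSG00000039899) at chr5:21372642-21378374, both on the plus strand. *Ebi3* (ENSMUSG00000003206) lies at chr17:55952640-55957022, *Tgfb1* (ENSMUSG00000002603) at chr7:25687002-25705077 and *Lrrc32* (ENSMUSG00000090958) at chr7:98489283-98502181, all on the plus strand. *Itgb8* (ENSMUSG00000025321) lies at chr12:119158022-119238802 on the minus strand. *Fgl2* overlaps *Ccdc146*, and *Ebi3* overlaps *Gm16712*, each on the other strand. In Foxp3+ T cells *Ccdc146* held 2 unique molecular identifiers (UMIs) in WT and 22 in dKO, and *Gm16712* held 1 and 7.

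After filtering, 10556 droplets remained in WT and 17462 in dKO, with medians of 1679 and 1685 UMIs. T cells numbered 7482 and 11761. Foxp3+ T cells, those with at least 1 *Foxp3* UMI, numbered 500 (6.68% of T cells) in WT and 3328 (28.3%) in dKO, with medians of 2202.5 and 1630 UMIs. Although CD4+ T cells were sorted, 1070 and 2346 droplets carried markers of plasmacytoid dendritic cells (pDCs) and 134 and 216 those of macrophages. The libraries shared 245 barcodes. In Foxp3+ T cells *Foxp3* stood at 619 CPM (UMIs of the gene per 1e6 UMIs of the group) in WT and 776 in dKO, and *Ctla4* at 1362 and 2292. *Nr4a1* stood at 951 and 2227 CPM and *Nr4a2* at 163 and 412, so RNA of both deleted genes was higher in the library labelled dKO. Which exons are deleted is not given in the sources used here and the counts are per gene, so these counts do not check the labels. The names WT and dKO below mean the libraries so labelled. With 1 library per genotype there is no replicate and no test. Intervals of 95% cover counting error only (Poisson for a level, binomial on the pair of counts for a ratio, Clopper-Pearson for a share), and cells of a library share its mice.

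*Il10*, *Fgl2* and *Itgb8* were 3.23 to 3.84-fold higher in Foxp3+ T cells of dKO than of WT, *Lrrc32* was 1.5-fold higher, and *Ebi3* and *Tgfb1* differed by less than 1.5-fold. Thus 4 of the 6 members were at least 1.5-fold higher in dKO and 0 were lower, where of 6603 genes tested 7.89% were higher and 9.48% lower by that limit and the median log2 ratio was -0.01. *Il10* held 67 UMIs in WT, or 45.2 CPM (35.0 to 57.4), and 1172 in dKO, or 163 CPM (154 to 173). The log2 ratio was 1.85 (1.5 to 2.23), and the intervals of the 2 levels did not overlap. Among the Foxp3+ T cells with a clonotype (262 in WT and 1373 in dKO) the log2 ratio was 1.62, and with 1 cell kept per clonotype (252 and 850) it was 1.14.

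*Fgl2* held 153 UMIs in WT and 2397 in dKO, at 103 CPM (87.5 to 121) and 334 CPM (320 to 347), a log2 ratio of 1.69 (1.46 to 1.94). *Itgb8* held 45 and 838 UMIs, at 30.4 CPM (22.1 to 40.6) and 117 CPM (109 to 125), a log2 ratio of 1.94 (1.51 to 2.41). For both genes, as for *Il10*, the dKO level lay above the WT interval. *Lrrc32*, the TGF-beta docking protein, held 55 and 401 UMIs, at 37.1 CPM (28.0 to 48.3) and 55.8 CPM (50.5 to 61.5), a log2 ratio of 0.59 (0.18 to 1.02). It was at the 1.5-fold limit and fell below it among cells with a clonotype (0.30), with 1 cell per clonotype (0.39), without cycling cells (0.52) or with each cell weighted equally (0.40).

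*Tgfb1*, the ligand itself, held 297 and 1676 UMIs, at 200 CPM (178 to 225) and 233 CPM (222 to 245), and its log2 ratio was 0.22 (0.04 to 0.40). *Ebi3* held 64 and 390 UMIs, at 43.2 CPM (33.3 to 55.1) and 54.3 CPM (49.0 to 59.9), and its log2 ratio was 0.33 (-0.05 to 0.73). The intervals of the 2 libraries overlapped for both genes. With 1 cell per clonotype *Ebi3* passed the limit (0.65). The Foxp3+ T cells of the 2 libraries also differed in other marker lists. The 5 Treg markers summed to 3152 CPM in WT and 6398 in dKO. Among them *Il2ra* was lower in dKO, at 269 and 193 CPM, while *Ctla4* (1362 and 2292) and *Tigit* (257 and 869) were higher. The 6 naive genes summed to 648 and 250 CPM, and the 7 cycle genes to 1057 and 623. Markers of macrophages were detected in the Foxp3+ T cells of both libraries, with all 7 of 7 genes seen and a sum of 47.9 CPM in WT and 69.2 in dKO. The sums for pDCs were 11.5 and 18.1 CPM. Macrophages themselves held *Il10* at 3.16 and 7.06 CPM, *Fgl2* at 22.1 and 113, *Itgb8* at 0 (up to 11.6) and 15.5, *Ebi3* at 31.6 and 35.3 and *Lrrc32* at 15.8 and 5.65, each below Foxp3+ T cells of the same library, and *Tgfb1* at 344 and 368, above them. The part of these differences in the ratios was not tested.

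**Figure D1:**
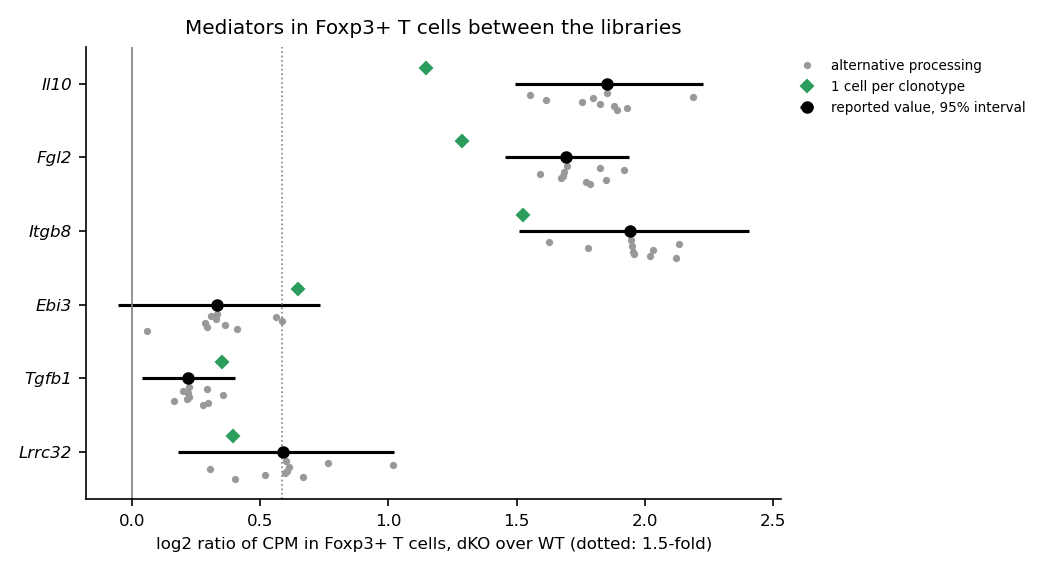
Log2 ratio of CPM between Foxp3+ T cells of dKO and WT for each mediator, with the reported value and its 95% interval in black, other ways of processing as grey points and 1 cell per clonotype as green diamonds. *Il10*, *Fgl2* and *Itgb8* lie right of the dotted 1.5-fold line under all settings drawn, while *Lrrc32* and *Ebi3* cross it.

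Within WT, *Lrrc32*, *Itgb8*, *Il10* and *Ebi3* set Foxp3+ T cells apart from the other T cells, while *Fgl2* and *Tgfb1* did so by less than 1.5-fold. That made 4 of 6 members higher, where 7.97% of 6524 genes were higher and 3.89% lower by that limit. *Lrrc32* stood at 37.1 CPM in Foxp3+ and 2.74 CPM in Foxp3- T cells of WT, 13.6-fold. *Itgb8* stood at 30.4 and 4.24 CPM, 7.17-fold, and *Il10* at 45.2 and 6.45 CPM, 7.01-fold. *Ebi3* stood at 43.2 and 8.73 CPM, 4.94-fold, and the lowest bound of the 4 log2 intervals was 1.85. *Fgl2* stood at 103 and 78.7 CPM, 1.31-fold, and *Tgfb1* at 200 and 170 CPM, 1.18-fold.

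Within dKO the contrast was smaller for the 4 genes. *Il10* stood at 163 CPM in Foxp3+ and 107 CPM in Foxp3- T cells, 1.53-fold, and *Itgb8* at 117 and 69.9 CPM, 1.67-fold. *Ebi3* stood at 54.3 and 31.1 CPM, 1.74-fold, and *Lrrc32* at 55.8 and 29.0 CPM, 1.93-fold. *Fgl2* stood at 334 and 215 CPM, 1.55-fold, so that 5 of 6 members were past the limit, against 2.99% higher and 2.44% lower of 6365 genes. *Tgfb1* again stayed near level, at 233 and 204 CPM. The Foxp3- T cells themselves differed between the libraries: *Il10* and *Itgb8* were each 16.5-fold higher there in dKO, *Lrrc32* 10.6-fold, *Ebi3* 3.57-fold, *Fgl2* 2.73-fold and *Tgfb1* 1.20-fold. In these sums more cells that express a gene and more RNA per cell cannot be told apart. The Treg marker list summed to 770 CPM in Foxp3- T cells of WT and 3869 CPM in those of dKO. Without the Treg-marker class described next, the dKO log2 ratio of Foxp3+ over Foxp3- was 1.26 for *Il10*, against 0.61 with it. The ratio was 1.89 for *Itgb8*, against 0.74, and 2.35 for *Lrrc32*, against 0.95. Cycling Foxp3- cells with Treg markers are not in that class and stayed in the comparison.

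Non-cycling T cells without a *Foxp3* UMI but with one of *Ikzf2* (Helios) and at least 2 of *Il2ra*, *Ctla4*, *Tigit*, *Tnfrsf4* and *Tnfrsf9* formed a Treg-marker class. It held 435 cells in WT and 3087 in dKO. Foxp3- T cells that met the cycling rule were called cycling, also where they had these Treg markers. The remaining Foxp3- T cells were called *Ifng*+, Il17+ (*Il17a* or *Il17f*) or naive-like by UMIs of those genes, or other T cells. No member was used for any gate. For *Il10* in dKO, non-cycling Foxp3+ T cells (178 CPM) and Treg-marker cells (171) overlapped, and both lay above all 8 of the other classes drawn. Other T cells followed at 100 CPM, cycling Foxp3+ cells at 76.1, cycling Foxp3- cells at 62.1 and *Ifng*+ T cells at 45.3. At the low end stood Il17+ T cells at 19.8 CPM, naive-like T cells at 13.4 and pDCs at 1.48. In WT Foxp3+ T cells stood at 48.6 CPM, cycling Foxp3+ cells at 35.2, Treg-marker cells at 26.7, Il17+ T cells at 23.5 from 6 UMIs, *Ifng*+ T cells at 4.41, and pDCs at 0 UMIs, which allows up to 2.06 CPM. Neighbours in the WT order overlapped throughout.

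Among the gated classes of each library, *Itgb8* and *Lrrc32* had their highest levels in the Foxp3+ and Treg-marker cells. *Itgb8* in dKO stood at 135 CPM in Treg-marker and 133 in Foxp3+ T cells, then 49.9 in other T cells and 25.1 in cycling Foxp3+ cells, down to 5.75 in naive-like T cells and 4.30 in pDCs. In WT it stood at 34.2 CPM in Foxp3+ T cells and 26.0 in Treg-marker cells, against 3.15 in *Ifng*+ and 0.50 in naive-like T cells. *Lrrc32* in dKO stood at 61.9 CPM in Foxp3+ and 59.3 in Treg-marker T cells, 21.3 in cycling Foxp3+ cells and 18.4 in other T cells, and 0 UMIs were found in Il17+ T cells of either library, which allows up to 14.5 CPM in WT and 7.31 in dKO. Its WT level of 43.2 CPM in Foxp3+ T cells overlapped that of cycling Foxp3+ cells (18.9) and lay above that of Treg-marker cells (18.3).

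In WT *Fgl2* had like levels in Foxp3+, *Ifng*+ and other T cells. It stood at 98.9 CPM in Foxp3+ T cells, 97.6 in *Ifng*+ T cells and 114 in other T cells, all of which overlapped, and at 54.9 (30.0 to 92.1) in Il17+ T cells. In dKO the Foxp3+ (357 CPM) and Treg-marker (358) classes stood apart from the next, cycling Foxp3+ cells at 203 and other T cells at 194, while *Ifng*+ T cells stayed at 114. Among the classes drawn, *Ebi3* was highest in Foxp3+ T cells in both libraries, at 45.9 CPM in WT and 56.2 in dKO. These levels overlapped the next class, cycling Foxp3+ cells at 35.2 in WT and Treg-marker cells at 47.0 in dKO. Macrophages stood at 31.6 and 35.3 and pDCs at 7.82 and 18.5. *Tgfb1* was highest in macrophages, at 344 and 368 CPM, and lowest in naive-like T cells, at 112 and 117 CPM, each apart from its neighbour in both libraries. The other 7 T cell classes held it at 176 to 209 CPM in WT and 181 to 258 in dKO.

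Compared class by class over the 8 T cell classes, *Il10* was higher in dKO in 7 and every one of those 7 intervals lay above 0. The exception was Il17+ T cells, with a log2 ratio of -0.25 (-1.85 to 1.49). *Itgb8* had 6 classes with an interval above 0, *Ebi3* 5, *Fgl2* and *Lrrc32* 4 each and *Tgfb1* 0. Some of these rest on few UMIs. *Lrrc32* in naive-like T cells held 5 in dKO and 2 in WT. *Itgb8* held 9 and 2 there, and 24 and 2 in cycling Foxp3- cells. The share of all genes with such intervals in each class is not given here. Treg-marker cells gave log2 ratios of 2.68 (2.19 to 3.21) for *Il10*, 2.22 (1.93 to 2.52) for *Fgl2*, 2.37 for *Itgb8*, 1.69 (1.09 to 2.36) for *Lrrc32* and 0.90 (0.37 to 1.47) for *Ebi3*. In *Ifng*+ T cells *Il10* differed by 3.36 (2.46 to 4.35), whereas *Fgl2* differed by 0.23 (-0.11 to 0.55). The difference between these classes was not tested.

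**Figure D2:**
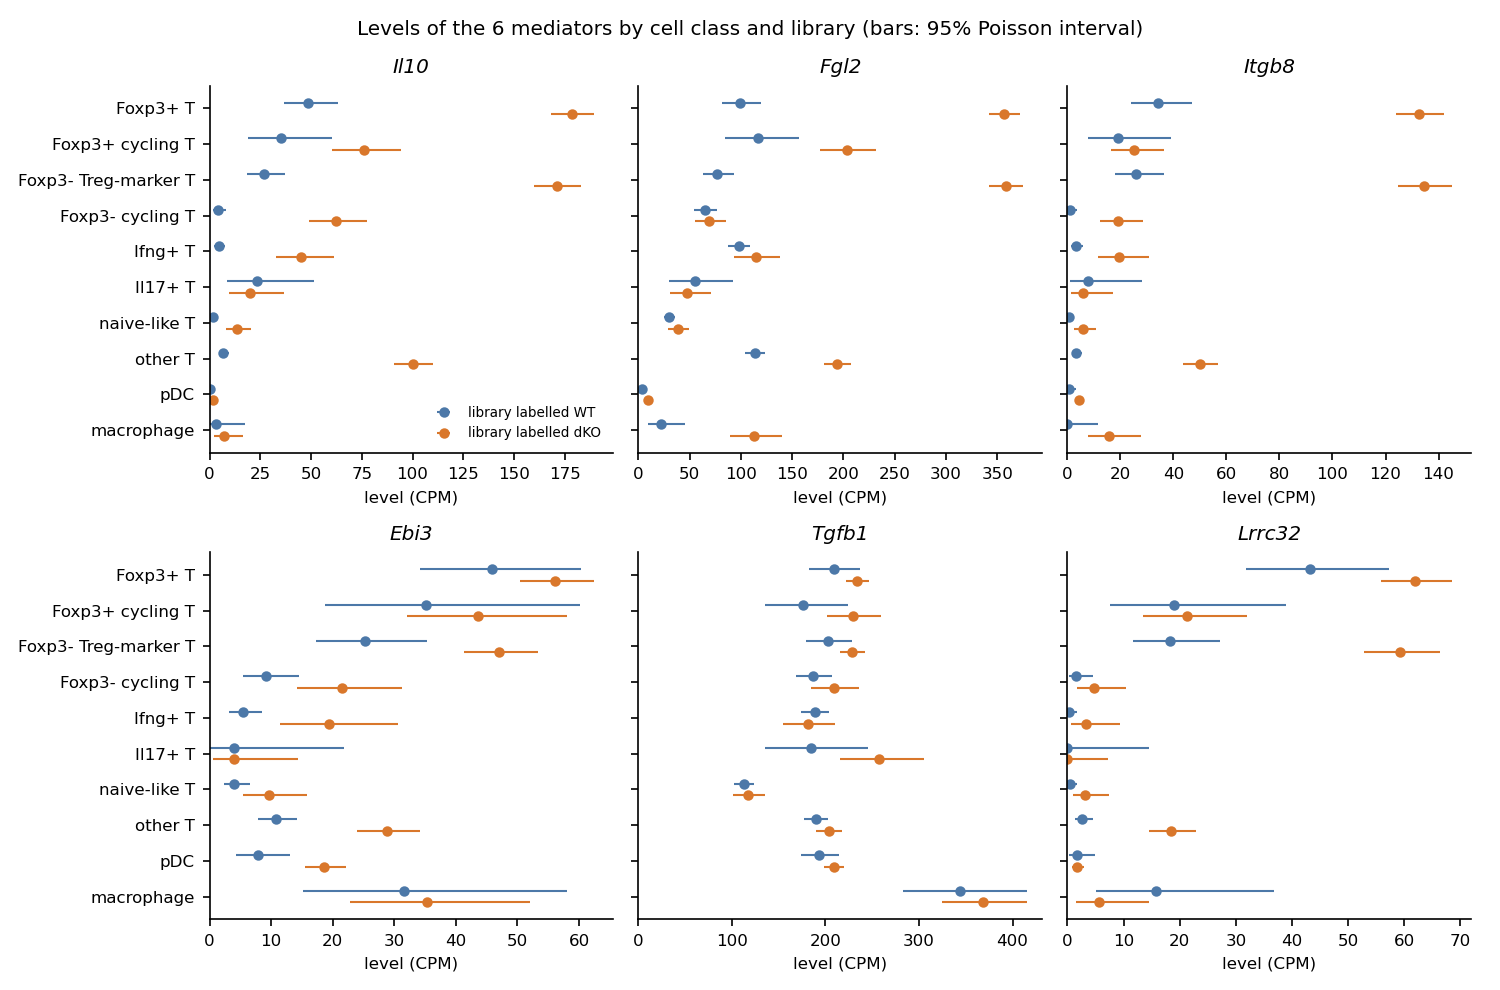
Level of each mediator (x axis, CPM) in 10 marker-gated classes of the WT (blue) and dKO (orange) libraries, with 95% Poisson intervals. *Il10*, *Fgl2*, *Itgb8* and *Lrrc32* are highest in the Foxp3+ and Treg-marker T cells of dKO, and *Tgfb1* is highest in macrophages of both libraries.

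As a share of the library's RNA for each gene, Foxp3+ T cells held 36.6% (29.6 to 44.0) of all *Il10* UMIs in WT while making up 4.74% of droplets, and 39.1% (37.3 to 40.8) in dKO while making up 19.1%. *Lrrc32* was alike, at 43.3% and 43.4%. *Fgl2* was not: its share in Foxp3+ T cells was 9.24% in WT and 37.0% in dKO. For *Tgfb1* the shares were 7.06% and 20.5%, against 4.74% and 19.1% of droplets.

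Cells were then thinned to 1000 UMIs, which kept 448 Foxp3+ T cells of WT and 2784 of dKO. A UMI of *Fgl2* was found in 8.71% (6.26 to 11.7) of WT and 27.7% (26.1 to 29.4) of dKO cells, against 21.0% and 40.7% unthinned. *Il10* was found in 3.13% (1.72 to 5.19) and 14.5% (13.3 to 15.9), against 7.0% and 21.2% unthinned, and *Itgb8* in 2.68% (1.39 to 4.63) and 11.4% (10.2 to 12.6), against 8.20% and 18.4%. The intervals of the 2 libraries did not overlap for any of these 3 genes. *Lrrc32* was found in 1.79% (0.774 to 3.49) and 5.50% (4.68 to 6.41), against 8.40% and 9.74% unthinned. *Ebi3* was found in 5.36% (3.46 to 7.87) and 5.82% (4.98 to 6.75), against 10.4% and 9.38%, and *Tgfb1* in 17% (13.6 to 20.8) and 20.3% (18.8 to 21.8), against 36.6% and 33.1%. These 2 genes were found in like shares of cells in the 2 libraries.

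The background was read from pDCs, thinned alike (685 and 2335 cells, from median depths of 1178 and 2812 UMIs). *Il10* was found in 0 of the WT pDCs, which allows up to 0.537%, and in 0.171% of the dKO pDCs. *Itgb8* was found in 0 and 0.471%, *Fgl2* in 0.292% and 0.642%, and *Lrrc32* in 0.146% and 0.0857%. The shares in Foxp3+ T cells were above these. *Ebi3* was found in 1.02% and 2.14% of pDCs, and *Tgfb1*, which pDCs transcribe, in 17.1% and 19.1%, so pDCs give no background for it. In the few WT cells with *Il10* the UMIs were clumped: 67 UMIs lay in 35 cells, with up to 9 in 1 cell, and in dKO 1172 lay in 705 cells, with up to 14.

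At least 1 of the 6 mediators was found in 34.2% (29.8 to 38.7) of Foxp3+ T cells in WT and 60.5% (58.6 to 62.3) in dKO. At least 2 were found in 4.24% (2.57 to 6.54), which is 19 cells, and in 20.7% (19.2 to 22.2), which is 576 cells. At least 3 were found in 1 WT cell and in 3.81% of dKO cells, and 0 cells held 5 or 6. With cells thinned to 2000 UMIs (279 in WT and 1299 in dKO), at least 1 was found in 55.6% and 75.6% and at least 2 in 15.4% (11.4 to 20.2) and 36.6% (33.9 to 39.3). Among Foxp3- T cells, at least 2 were found in 1.43% of WT and 10.6% of dKO cells at 1000 UMIs. At 2000 UMIs these shares were 4.65% and 21.1%.

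**Figure D3:**
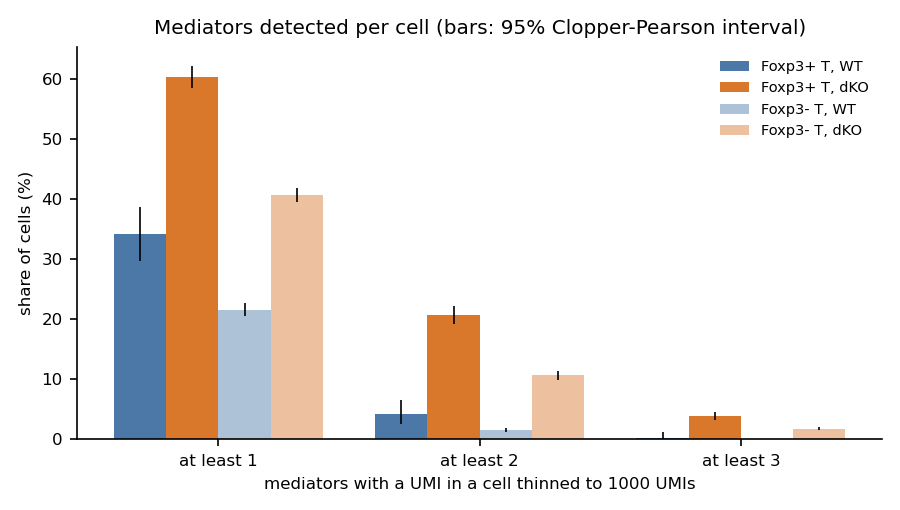
Share of cells (y axis, %) with at least 1, 2 or 3 of the mediators after thinning to 1000 UMIs, for Foxp3+ (full colour) and Foxp3- (pale) T cells of WT (blue) and dKO (orange), with 95% Clopper-Pearson intervals. The dKO bar is above the WT bar for Foxp3+ T cells at each count, at 60.5% against 34.2% for at least 1 and 20.7% against 4.24% for at least 2.

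Pairs of mediators were detected together in dKO at 0.65 to 1.38 times the product of their own shares, over 15 pairs. *Il10* and *Fgl2*, which both encode secreted proteins, were together in 131 cells, 1.17 times the product. *Fgl2* was found in 32.3% (27.8 to 37.1) of cells with *Il10* and 26.9% (25.2 to 28.8) of cells without it. That difference was 5.40 percentage points, and 12.4 with cells thinned to 2000 UMIs. *Fgl2* and *Itgb8* were together in 103 cells, also 1.17 times, and *Itgb8* and *Lrrc32* in 24 cells, 1.38 times. *Il10* and *Itgb8* were together in 51 cells, 1.11 times, where the difference was 1.41 points at 1000 UMIs and 7.45 at 2000. Pairs below the product included *Il10* with *Ebi3*, in 17 cells at 0.72 times, and *Itgb8* with *Ebi3*, in 12 cells at 0.65 times. At 2000 UMIs their differences changed sign, from -1.90 to 0.18 points and from -2.29 to 1.95. *Itgb8* with *Tgfb1*, in 73 cells at 1.14 times, went from 3.13 to -0.92 points. The lowest difference at 2000 UMIs was -6.62 points, for *Tgfb1* by *Ebi3*, followed by -2.64 for *Lrrc32* by *Ebi3*. At 1000 UMIs a cell most transcripts are missed, and WT pairs were found in 0 to 4 cells, too few to compare.

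Foxp3+ T cells were split by a UMI of another gene to see which of them held the mediators. Cells with *Klrg1*, a marker of terminally differentiated Tregs, had more *Il10* in both libraries: 70.7 against 28.2 CPM in WT (166 and 334 cells), a log2 ratio of 1.33 (0.58 to 2.10), and 197 against 135 CPM in dKO (1394 and 1934 cells), 0.55 (0.38 to 0.72). Cells with *Ikzf2* had more *Itgb8*, by 1.48 (0.23 to 3.01) in WT and 0.56 (0.27 to 0.86) in dKO. Cells with *Tigit*, a co-inhibitory receptor, had more *Lrrc32*, by 1.01 (0.15 to 1.93) and 0.44 (0.05 to 0.84). They also had more *Il10*, by 0.89 (0.12 to 1.69) in WT and 0.23 (0.01 to 0.44) in dKO. *Lrrc32* was higher in cells with *Ikzf2*, by 1.14 (0.09 to 2.35) in WT and 0.69 (0.26 to 1.15) in dKO. *Ebi3* was lower in cells with *Maf*, by -0.76 (-1.53 to -0.01) in WT and -0.71 (-1.01 to -0.42) in dKO.

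The splits that follow were less alike in the 2 libraries, and those differences were not tested. Cells with *Maf*, a transcription factor that binds the *Il10* locus, had more *Il10* in dKO, with a log2 ratio of 0.45 (0.27 to 0.63), while in WT the ratio was -0.61 (-1.35 to 0.13). Cells with *Batf*, an AP-1 family factor, had less *Fgl2* in dKO, with a log2 ratio of -0.58 (-0.70 to -0.45), while in WT it was 0.31 (-0.17 to 0.78). Foxp3+ cells with *Il17a* or *Il17f* (73 cells in dKO) had less *Itgb8*, with a log2 ratio of -2.05, and less *Fgl2*, with -0.97. In WT the 27 cells with *Il17a* or *Il17f* had 0 *Itgb8* UMIs, which allows up to 35.6 CPM against 32.6 in the other cells, and an *Fgl2* ratio of -0.10. Cells with *Ifng* or with *Icos*, a co-stimulatory receptor, had less *Ebi3* in WT, with log2 ratios of -1.85 (-3.77 to -0.42, from 4 UMIs) and -1.04 (-1.81 to -0.23), and in dKO these were -0.21 and -0.29 with intervals that spanned 0. The 3 genes that mark tissue-repair Tregs went opposite ways for *Il10*. Cells with *Il1rl1*, the IL-33 receptor, had 75.8 against 31.4 CPM of *Il10* in WT (124 and 376 cells) and 119 against 170 CPM in dKO (337 and 2991 cells). Cells with *Areg*, the growth factor amphiregulin, had 65.0 against 29.3 CPM in WT (195 and 305 cells) and 140 against 182 CPM in dKO (1256 and 2072 cells). Cells with *Penk*, the enkephalin precursor, had 161 against 40.7 CPM in WT, from 18 cells and 9 UMIs, and a log2 ratio of -0.70 (-1.23 to -0.22) in dKO. For *Ebi3* in dKO the same cells had more, by 0.82 (0.46 to 1.17) with *Il1rl1*, 0.38 (0.08 to 0.67) with *Areg* and 0.98 (0.43 to 1.48) with *Penk*. In WT *Ebi3* differed by -0.10, -0.05 and -0.28 in that order, with intervals that spanned 0. Depth differed between the sets for some genes (*Klrg1* in WT: medians of 3047 and 1995.5 UMIs) and less for others (*Penk* in WT: 2148.5 and 2202.5), and levels are CPM over the UMIs of each set.

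**Figure D4:**
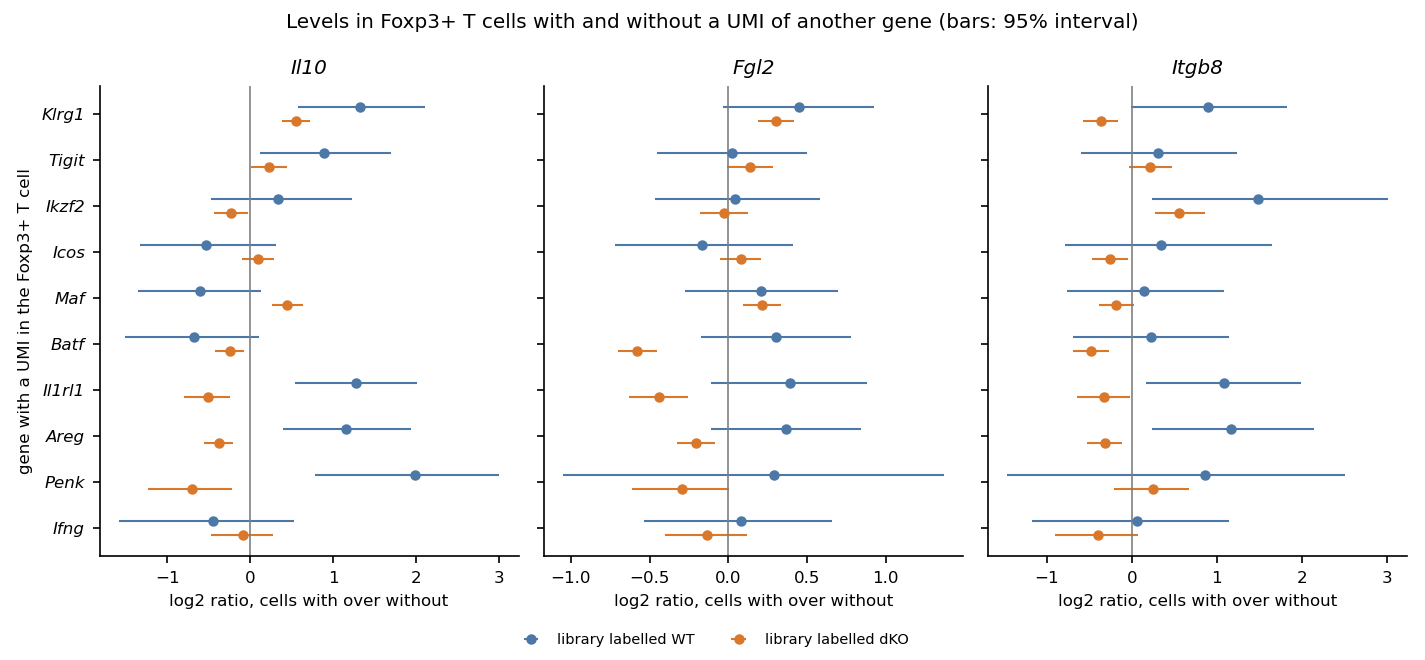
Log2 ratio of *Il10*, *Fgl2* and *Itgb8* (x axis) between Foxp3+ T cells with and without a UMI of the gene on the y axis, in WT (blue) and dKO (orange), with 95% intervals. *Klrg1* lies above 0 for *Il10* in both libraries, and *Il1rl1*, *Areg* and *Penk* lie on opposite sides of 0 for *Il10*.

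Clones were read from T cell receptor contigs, with a clonotype for 3605 T cells in WT and 4493 in dKO. In WT 10 clones held at least 20 cells, and *Il10* had 0 UMIs in all 10 of them, which allows up to 13.5 CPM in the largest and 94.1 in the least deep. Their largest, of 95 cells, had no Foxp3+ cell, and its *Fgl2* level was 106 CPM. In dKO 17 clones held at least 20 cells and 11 of them had *Foxp3* in at least 20% of cells. The largest had 422 cells (9.39% of T cells with a clonotype), of which 156 (37.0%) were Foxp3+, and stood at 287 CPM of *Il10*, 367 of *Fgl2* and 93.9 of *Itgb8*.

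The 11 Foxp3-rich clones differed among themselves. *Il10* ranged from 26.8 to 684 CPM with a median of 198, *Fgl2* from 129 to 752 with a median of 431, and *Itgb8* from 55.9 to 271 with a median of 170. Their order differed from gene to gene. A clone of 34 cells had both the highest *Il10* and the highest *Fgl2*. The second largest clone (103 cells) had 414 CPM of *Il10* (325 to 520) and the lowest *Itgb8*, 55.9. The third (80 cells) had 121 CPM of *Il10* (70.7 to 194), 600 of *Fgl2* and 250 of *Itgb8*. A clone of 20 cells had 359 CPM of *Il10* and the lowest *Fgl2*, 129. Another of 20 cells had 45.2 CPM of *Il10* from 3 UMIs and 271 of *Itgb8*, the highest. *Lrrc32* ranged from 0 to 100 CPM and *Ebi3* from 0 to 89.5. The mice of a pool are not marked, so a clone may come from 1 mouse.

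**Figure D5:**
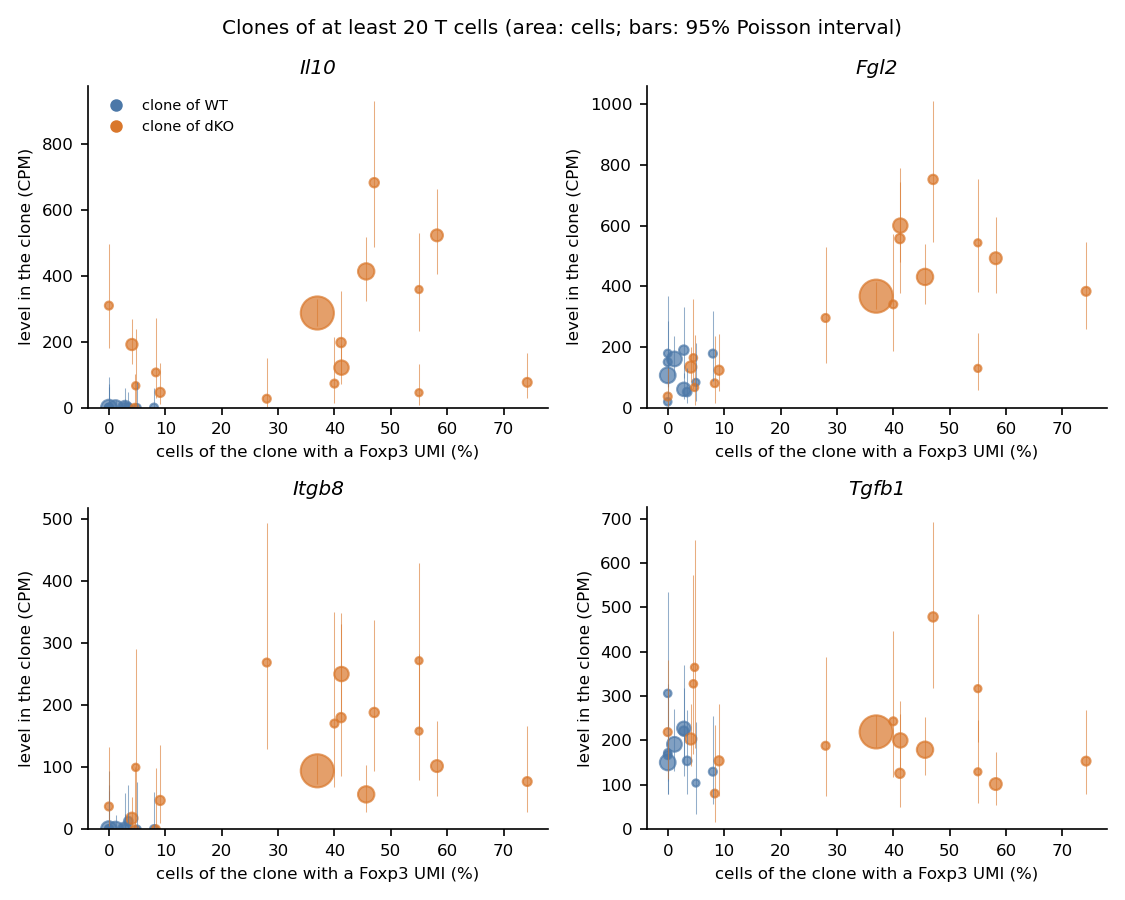
Level of *Il10*, *Fgl2*, *Itgb8* and *Tgfb1* (y axis, CPM) in clones of at least 20 T cells against the share of their cells with a *Foxp3* UMI (x axis, %), for WT (blue) and dKO (orange), with area for the number of cells and 95% Poisson intervals. The 10 WT clones lie at 8% *Foxp3* or less with *Il10* at 0, while the 11 Foxp3-rich dKO clones spread from 26.8 to 684 CPM of *Il10*.

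Sister cells of a dKO clone with and without a *Foxp3* UMI differed little in *Il10* and *Itgb8*, and somewhat in *Fgl2*. In the largest clone *Il10* stood at 294 CPM in the 156 Foxp3+ cells and 282 in the 266 Foxp3- cells, a log2 ratio of 0.06 (-0.36 to 0.47), and *Fgl2* at 377 and 359 CPM. Over all 165 dKO clonotypes with both kinds of cell (637 and 962 cells), *Il10* stood at 207 and 210 CPM, a log2 ratio of -0.02 (-0.24 to 0.21), and *Itgb8* at 104 and 112 CPM, -0.10 (-0.41 to 0.22). *Fgl2* stood at 393 and 330 CPM, 0.25 (0.08 to 0.42), with the interval above 0. *Ebi3* differed by 0.36 (-0.12 to 0.85) over all and -0.47 (-1.39 to 0.41) in the largest clone, and *Lrrc32* by 0.14 and 0.45, each interval spanning 0. Of 3 Treg markers in the same cells, *Il2ra*, the high-affinity IL-2 receptor chain, differed by 0.99, *Ikzf2* by 0.34 and *Ctla4* by 0.33, and in the largest clone *Il2ra* differed by 0.59 (-0.11 to 1.30). Whether a Foxp3- sister lacked *Foxp3* RNA or had it below detection cannot be told apart. In WT 38 clonotypes held both kinds (43 and 360 cells), with *Itgb8* in 7 and 3 UMIs, a log2 ratio of 3.67 (1.54 to 6.26), *Lrrc32* in 4 and 1 UMIs, *Il10* in 3 and 0 UMIs, and *Fgl2* at 102 and 129 CPM, -0.34 (-1.23 to 0.45).

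Genes with a like pattern were sought over the 20 groups of class and library with at least 50 cells, by Pearson correlation of log2(CPM + 1) among 8935 genes. The groups share 2 libraries and their depth, so the values describe likeness and no test was made. Nearest to *Il10* were *Gm45716* (0.947), *Serpinb6a* (0.940) and *Tmem158* (0.939), and nearest to *Itgb8* were *E130308A19Rik* (0.939), *Gm45716* (0.917) and *Il10* (0.915). Nearest to *Fgl2* were *Gbp7* (0.947), *Pglyrp1* (0.944) and *AW112010* (0.940). *Ebi3* and *Lrrc32* were nearest to each other (0.932), followed by *Swap70* (0.909) and *Cep85l* (0.901) for *Ebi3* and *Arl5a* (0.924) and *Med15* (0.886) for *Lrrc32*. *Tgfb1* had *Sh3glb1* (0.903), *Slc15a3* (0.875) and *Picalm* (0.873), and its likeness to *Il10* was 0.128.

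Other products of Treg suppression formed a list of 17 genes, of which 16 could be compared between the libraries in Foxp3+ T cells, with 6 higher and 2 lower by 1.5-fold, against 7.89% and 9.48% of all genes, and a median log2 ratio of 0.32 against -0.01. *Lag3*, a co-inhibitory receptor, stood at 14.9 CPM in WT and 143 in dKO, and *Entpd1* (CD39, which degrades ATP) at 33.7 and 128. *Penk* stood at 30.4 and 105 CPM, *Tigit* at 257 and 869, *Ctla4* at 1362 and 2292, and *Havcr2* at 33.7 and 52.9. The 2 lower genes were *Nrp1*, at 132 and 52.3 CPM, and *Nt5e* (CD73, which makes adenosine), at 140 and 81.6. Between Foxp3+ and Foxp3- T cells, 11 of 15 were higher and 0 lower in WT (7.97% and 3.89% of all genes; median log2 ratio 1.01 against 0.05) and 4 of 16 were higher and 0 lower in dKO (2.99% and 2.44%; 0.42 against 0.05). *Il2ra*, *Areg*, *Gzmb* and *Ctla4* were higher in both, with log2 ratios of 2.52 and 1.25, 2.39 and 0.93, 2.21 and 0.60, and 2.06 and 0.76.

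The list of TGF-beta activation and signalling held 18 genes, of which 12 could be compared between the libraries, with 1 higher and 3 lower in dKO and a median log2 ratio of -0.19. The 1 higher is near the 7.89% of all genes, and 9.48% of all genes were lower. *Itgav*, the integrin chain that pairs with beta-8, was higher, at 563 CPM in WT and 881 in dKO. *Smad3*, which carries the signal to the nucleus, stood at 149 and 54.3 CPM. *Furin*, the protease that cleaves the TGF-beta precursor, stood at 83.7 and 49.1 CPM, and *Tgfbr2*, the ligand-binding receptor, at 182 and 119 CPM. By class, non-cycling Foxp3+ T cells held 673 and 973 CPM of *Itgav* and Treg-marker cells 447 and 932, against 128 and 164 in *Ifng*+ T cells. Between Foxp3+ and Foxp3- T cells *Itgav* was higher (log2 ratios of 2.00 in WT and 0.79 in dKO) and *Tgfbr2* lower (-0.81 and -0.76) in both libraries. In WT *Tgfbr1* and *Tgif1* were also higher, and *Tgfbr3* and *Smad2* lower, making 3 and 3 of 13, against 7.97% and 3.89% of all genes. In dKO the counts were 1 and 1 of 12, against 2.99% and 2.44% (median log2 ratios of 0.13 and 0.08, each against 0.05 for all genes).

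For *Ebi3*, the list of IL-12 family partners and receptors held 8 genes, of which 4 could be compared. *Il12a* and *Il27*, whose products pair with EBI3 as IL-35 and IL-27, had 0 UMIs in Foxp3+ T cells of both libraries, as had *Il12b* and *Il23a*. For *Il12a* and *Il27* in non-cycling Foxp3+ T cells this allows up to 3.32 CPM in WT and 0.604 in dKO. *Il12a* was found in pDCs, at 24.6 CPM in WT and 43.1 in dKO, and *Il27* in macrophages, with 1 and 8 UMIs. Between the libraries 0 of the 4 were higher and 1 was lower, against 7.89% and 9.48% of all genes: *Il12rb2*, a receptor chain of IL-12 and IL-35, stood at 43.2 CPM in WT and 15.5 in dKO (median log2 ratio of the 4, -0.01). It was also lower in Foxp3+ than in Foxp3- T cells, by log2 ratios of -1.31 in WT and -1.55 in dKO. In WT *Il12rb1* and *Il6st* were higher in Foxp3+ T cells, 2 of 4 against 7.97% of all genes, and in dKO 0 of 4 were, against 2.99%.

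Of 4 receptors of IL-10 and FGL2, 2 could be compared, and neither was past 1.5-fold between the libraries or within dKO, where 7.89% and 9.48%, and 2.99% and 2.44%, of all genes were. In WT *Il10ra* was higher in Foxp3+ T cells, at 98.5 against 50.3 CPM, where 7.97% of all genes were. *Il10ra* stood at 155 CPM in WT macrophages and 134 in dKO macrophages. The FGL2 receptors *Fcgr2b* and *Fcgr3* stood at 303 and 303 CPM in WT macrophages and 340 and 312 in dKO macrophages, with 5 UMIs of each in non-cycling Foxp3+ T cells of WT. All 10 transcription factors listed for *Il10* could be compared. *Maf* was higher in dKO, at 263 and 487 CPM, as were *Prdm1* (Blimp-1), at 50.6 and 84.5, and *Batf*, at 145 and 232, while *Ahr*, the aryl hydrocarbon receptor, was lower, at 58.0 and 33.3. These are 3 and 1 of 10, against 7.89% and 9.48% of all genes, with a median log2 ratio of 0.48. In WT 5 of the 10 were higher in Foxp3+ T cells (*Nfil3*, *Gata3*, *Prdm1*, *Maf* and *Batf*) and 0 lower, against 7.97% and 3.89% of all genes. In dKO 0 of 10 passed the limit in either direction, where 2.99% and 2.44% of all genes did. The median log2 ratios were 0.53 and 0.25.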

How the data were processed

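Hepatic CD4+ T cells were captured with 10x 5′ chemistry in 1 library per genotype, and their RNA and T cell receptor contigs were sequenced. The authors deposited raw UMI counts per gene and cell, made with Cell Ranger 7.0.1 on mm10, and counts of UMIs per receptor contig. Whether intronic or antisense reads were counted is not given in the sources used here. Droplets with over 200 genes and under 5% mitochondrial counts were kept (10556 in WT with 23437516 UMIs, 17462 in dKO with 37794986).

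T cells had at least 2 UMIs of CD3 or T cell receptor genes or a TRB contig, and were classed by UMIs of marker genes. Cycling cells had at least 3 UMIs from 2 cycle genes and naive-like cells at least 2 of 6 naive genes. Other lineages needed at least 3 UMIs (macrophages 5, neutrophils 10). Mixed droplets (734 and 1959) were left out. They had markers of another lineage with at least 2 CD3 UMIs or a TRB contig, or markers of several other lineages. Markers of mature and conventional dendritic cells together did not make a droplet mixed. No doublet caller was run, and cells with 2 TRB chains were left out as an alternative. Counts were summed per library and class and given as CPM. Ratios were called at 1.5-fold among genes with at least 10 UMIs in the lower and 20 CPM in the higher group. For shares, cells were thinned to 1000 UMIs. No test was run, since each genotype has 1 library. Where a count of 0 is said to allow a level or share, this is the upper bound of its 95% Poisson or Clopper-Pearson interval.

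The members, gene lists, gates and splits were chosen with earlier results of these data known. Named beside the members were genes of the lists past 1.5-fold between libraries, or the same way in both, up to 8 a list. Where fewer than 6 genes of a list were past the limit the others were named too, and these, with *Nrp1*, *Nt5e* and *Havcr2*, were chosen after their values were seen. The 3 most alike genes per member were also named. Poisson counts without cells, clones or mice were simulated for dKO over WT in Foxp3+ T cells (6170 genes). On these the intervals held the true ratio for 95.5% of genes changed 1.5-fold. The shares were 97.0% at 2-fold and 93.9% at 4-fold. Since the intervals assume such counts, this checks their computation only. It cannot show how well they cover real counts, in which UMIs are clumped in cells and clones. The work used Python 3.11.15, numpy 2.4.6, pandas 2.3.3, scipy 1.17.1, matplotlib 3.10.9, R 4.3.3 and edgeR 4.0.16 (for TMM scaling only). Beside the splits given, a further split of Foxp3+ T cells is not reported here. Gene positions came from GENCODE M21.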

Additional observations from a re-analysis of the deposited data

Results flagged for a closer look

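In Foxp3+ T cells, 3 genes split *Il10* in opposite directions in the 2 libraries with both intervals off 0. Of these genes, 2 did so for *Itgb8*. Other splits with opposite signs, such as *Il10* by *Maf*, had an interval that spanned 0 in 1 library or both. With over without *Areg*, the log2 ratio of *Il10* was 1.15 in WT and -0.38 in dKO. With over without *Il1rl1* it was 1.27 in WT and -0.52 in dKO. With over without *Penk* it was 1.98 in WT, from 18 cells, and -0.70 in dKO. For *Itgb8* the log2 ratio was 1.17 in WT and -0.32 in dKO by *Areg*, and 1.08 in WT and -0.33 in dKO by *Il1rl1*. The difference between the libraries was not tested.

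Shares of cells were also taken after thinning to 1000 UMIs. *Il10* was found in 3.33% of 180 WT cells with *Areg* and 2.99% of 268 without it, and in 10.7% and 17.2% of such cells in dKO. By *Il1rl1* the shares with *Il10* were 4.27% and 2.72% in WT and 9.94% and 15.1% in dKO. By *Penk* they were 6.25% and 3.01% in WT and 10.5% and 14.7% in dKO. For *Itgb8* the shares by *Areg* were 4.44% and 1.49% in WT and 11.4% and 11.4% in dKO, and by *Il1rl1* 5.13% and 1.81% in WT and 10.6% and 11.5% in dKO. The WT shares rest on 1 to 9 cells except for *Il10* without *Penk*. In WT the 95% intervals of the shares with and without the gene overlapped in every split. In dKO they overlapped in every split but *Il10* by *Areg* (8.93 to 12.6 and 15.4 to 19.1). The intervals of the log2 ratios take each UMI as a separate count, while several UMIs can lie in the same cell. By share of cells the opposite directions were thus not set apart from counting error in WT.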

How the results depend on the processing

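No paired analysis was possible because each genotype has 1 library. Over 11 alternatives, of which 1 (cells with a clonotype) was added after seeing the data, the log2 ratio of dKO over WT in Foxp3+ T cells ranged from 1.14 to 2.19 for *Il10*, 1.29 to 1.92 for *Fgl2*, 1.52 to 2.13 for *Itgb8*, 0.06 to 0.65 for *Ebi3*, 0.17 to 0.35 for *Tgfb1* and 0.30 to 1.02 for *Lrrc32*. The lowest *Il10* and *Fgl2* values, 1.14 and 1.29, came from 1 cell per clonotype. Without Treg-marker cells among the Foxp3- T cells, the log2 ratios of Foxp3+ over Foxp3- in WT were 3.31 for *Il10*, 3.78 for *Itgb8* and 4.85 for *Lrrc32*, and in dKO 1.26 for *Il10*, 1.36 for *Fgl2*, 1.89 for *Itgb8*, 1.32 for *Ebi3*, 0.30 for *Tgfb1* and 2.35 for *Lrrc32*. Shares of cells moved with the depth, as thinning makes them. At 500 UMIs they were 7.54% for *Il10* in dKO, 4.60% and 16.7% for *Fgl2* in WT and dKO, 6.22% for *Itgb8* in dKO, 2.20% and 2.70% for *Ebi3*, 9.0% and 11.9% for *Tgfb1* and 3.55% for *Lrrc32* in dKO. At 2000 UMIs they were, in WT and dKO, 5.38% and 18.7% for *Il10*, 16.1% and 37.6% for *Fgl2*, 4.66% and 16.2% for *Itgb8*, 9.32% and 9.31% for *Ebi3*, 31.2% and 34.1% for *Tgfb1* and 6.45% and 9.01% for *Lrrc32*. Unthinned they were 7.0% and 21.2%, 21.0% and 40.7%, 8.20% and 18.4%, 10.4% and 9.38%, 36.6% and 33.1%, and 8.40% and 9.74% in the same order. At 2000 UMIs the share with a second gene among dKO cells with a first minus that without it, in percentage points, was 12.4 for *Fgl2* by *Il10*, 7.45 for *Itgb8* by *Il10*, -2.48 for *Ebi3* by *Fgl2*, 2.28 for *Lrrc32* by *Fgl2*, 1.95 for *Ebi3* by *Itgb8* and 5.73 for *Lrrc32* by *Itgb8*. By *Il10* this difference was also 0.18 for *Ebi3*, -2.47 for *Tgfb1* and -1.97 for *Lrrc32*. By *Fgl2* it was 2.28 for *Itgb8* and -1.56 for *Tgfb1*, and by *Itgb8* -0.92 for *Tgfb1*. By *Ebi3* it was -6.62 for *Tgfb1* and -2.64 for *Lrrc32*, and by *Tgfb1* 1.40 for *Lrrc32*. The 5 splits that went opposite ways with both intervals off 0 were recomputed under up to 3 alternatives chosen after seeing the data. Of these, *Itgb8* by *Il1rl1* in dKO changed sign with 1 cell per clonotype, to 0.11. The other splits were not recomputed. The cause of these shifts was not tested.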

Other observations

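Droplets that met no gate (1101 in WT and 1116 in dKO) held mediator RNA in dKO: *Fgl2* at 260 CPM, against 101 in WT, *Itgb8* at 164 against 16.1, and *Il10* at 63.0 against 3.84. Their *Foxp3* level was 33.0 CPM in WT and 169 in dKO, and their *Cd3e* level 113 and 141, against 860 and 1226 in Foxp3+ T cells.

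Outside the T cells, *Fgl2* in macrophages stood at 22.1 CPM from 7 UMIs in WT and 113 CPM from 80 UMIs in dKO, a log2 ratio of 2.35 (1.24 to 3.71). *Ebi3* in pDCs differed by 1.25 (0.45 to 2.16). In the same droplets the 5 Treg markers summed to 72.6 CPM in WT and 198 in dKO for macrophages, and to 57.0 and 108 for pDCs, and their part in these differences was not tested.

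In dKO 6 clones of at least 20 cells had *Foxp3* in under 10% of cells, and 5 of them held *Il10* UMIs, 3 of these with 2 to 4 UMIs. A clone of 25 cells with 0 Foxp3+ and 20% Treg-marker cells had 17 *Il10* UMIs, in 28.0% of its cells, at 310 CPM (181 to 496). A clone of 49 cells, of which 2 were Foxp3+ and 28.6% Foxp3+ or Treg-marker cells, had 33 UMIs, in 34.7% of its cells, at 192 CPM (132 to 269). None of the 10 WT clones of at least 20 cells held an *Il10* UMI.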
